A study of Mus musculus with 2 samples.

Results

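Lcn2, the gene of lipocalin 2 (neutrophil gelatinase-associated lipocalin, NGAL), was measured by cell type in post-ischemic mouse kidneys. It was taken by its symbol, which names 1 of the 32285 genes counted. Single-cell RNA sequencing was done on 1 control mouse, given saline, and 1 mouse given JPI-289 at 100 mg/kg, an inhibitor of poly(ADP-ribose) polymerase (PARP). Both were male C57BL/6 mice of 9 weeks that underwent bilateral renal ischemia-reperfusion, were injected into the peritoneal cavity just before reperfusion and were sacrificed at 24 h. No kidney without ischemia is among the samples used here, so no level before injury is known. With 1 library per group there is no replicate and no test between the groups, and each value below describes these libraries only. Intervals are 95% intervals of counting error alone (exact Poisson for levels, exact binomial for ratios and for shares of cells), and they do not hold the difference between mice. Those of levels and ratios also leave out the spread of Lcn2 between the cells of a class.

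Lipocalin 2 is a small secreted protein that binds bacterial siderophores and thereby withholds iron. It was first known from the granules of neutrophils, and injured kidney tubules make it in large amounts, which is why NGAL in urine and plasma is used as a marker of acute kidney injury. Its transcription is driven by inflammatory cytokines through nuclear factor kappa B (NF-κB), its cofactor IκBζ and the C/EBP factors, and the protein filtered at the glomerulus is taken up in the proximal tubule by megalin, which Lrp2 encodes. The gene (ENSMUSG00000026822) lies on chromosome 2 from 32384633 to 32388252, on the minus strand of GRCm38 in the GENCODE annotation. It has 6 annotated transcripts, of which Lcn2-201 has 6 exons and 915 bases. The stretch just before the start of Lcn2-201 is shown because C/EBP and NF-κB genes are among those compared below. It covers chr2:32387798-32387989 on the minus strand (192 bases, from the RefSeq promoter table on GRCm38.p6) and overlaps an exon of another annotated transcript of the gene (32387851 to 32388093). Capitals mark the match to the C/EBP core TTGCNNAA.
Lcn2 upstream stretch: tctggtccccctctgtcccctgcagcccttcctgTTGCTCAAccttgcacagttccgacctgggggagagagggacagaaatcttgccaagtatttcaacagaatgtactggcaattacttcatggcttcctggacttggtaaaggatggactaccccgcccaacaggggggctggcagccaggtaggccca
The match lies from 158 to 151 bases before the start. On both strands, 7.84% of the 32851 windows of the same length in that table hold this core. Each window is the first 192 bases of its row. That table places the start of Lcn2 at 32387739, downstream of the start of Lcn2-201. The windows therefore leave out the bases nearest the starts in that table. No match was found to the STAT palindrome TTCNNNGAA (in 5.56% of windows), to TATAAA (8.82%) or to the NF-κB consensus (5.49%), which says only that these letters are not in this window.

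The control library held 38328760 unique molecular identifiers (UMIs, each standing for 1 captured transcript) and the JPI-289 library 35548396. After calling, 3750 control and 5045 JPI-289 cells were kept, and 23 cell barcodes were used in both libraries. The median cell had 2056.5 UMIs in the former and 1866 in the latter. Doublets remain, since the caller marked 3 of the 8795 cells and so did not work. Cells were clustered with Lcn2 left out, and a cluster was named, as "like" a cell type, from marker genes. In all 7 classes of main interest, from 7 of 8 to 10 of 10 markers had UMIs in each library, and the summed markers were at a higher level than in any other class. Clusters were named by these same markers, so this describes the classes and does not test their names. The single marker at 0 was Tmem207 in thick ascending limb-like cells of the JPI-289 library.

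With the reported clusters Lcn2 was highest in cells of the thick ascending limb in both libraries, and cells of the proximal tubule, stroma and resident macrophages were among the lowest. Levels are given in CPM, the UMIs of a gene for each 1000000 UMIs summed over the cells of a class. In the control library the level was 14321 CPM (14070 to 14574) in thick ascending limb-like cells (TAL-like), 12761 (12539 to 12987) in principal-like cells of the collecting duct (PC-like) and 11029 (10770 to 11292) in thin limb-like cells. Neutrophil-like cells had 6124 CPM (5894 to 6361) and cells like the distal convoluted and connecting tubule (DCT/CNT-like) 5817 (5620 to 6019), and these neighbours in the order differed by 1.05-fold (1.00 to 1.11). After a step of 12.7-fold (11.8 to 13.7) followed endothelial-like cells (EC-like) with 456 CPM (427 to 487). Podocyte-like cells had 238, red blood cell-like cells 219, macrophage-like cells 102, proximal tubule-like cells (PT-like) 79.5 and stroma-like cells 59.1 CPM. In the control library podocyte-like and red blood cell-like cells could not be told apart (1.10-fold, 0.589 to 1.97), nor could macrophage-like and PT-like cells (1.30-fold, 0.960 to 1.69).

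The order changed in the JPI-289 library. TAL-like cells had 23775 CPM (23503 to 24049), 2.83-fold (2.73 to 2.92) the level of thin limb-like cells, which came next with 8412 (8153 to 8677). PC-like cells had 7028 (6887 to 7171), neutrophil-like cells 5328 (5217 to 5442) and EC-like cells 3049 (2967 to 3133). Podocyte-like cells, at 2628 (2289 to 3002), lay above DCT/CNT-like cells, at 1928 (1826 to 2034). Their place in the order rested on 1 cell, which held 173 of their 216 Lcn2 UMIs. All other classes with at least 50 cells were below 1000 CPM, among them intercalated-like cells of the collecting duct with 654, stroma-like cells with 279, macrophage-like cells with 237 and PT-like cells with 129 (121 to 138). Of these neighbours, intercalated-like and red blood cell-like (1.25-fold, 0.958 to 1.62), stroma-like and macrophage-like (1.18-fold, 0.903 to 1.53) and macrophage-like and lymphocyte-like cells (1.08-fold, 0.775 to 1.54) could not be told apart. The level in TAL-like cells was 180-fold (166 to 195) that in PT-like cells in the control against 184-fold (173 to 197) in the JPI-289 library. These values depended on how cells were named. With each cell named by itself, PT-like cells had 696.6 and 580.5 CPM, TAL-like cells 13856 and 27599, and PC-like cells 16327 and 11144, so that PC-like cells were the highest in the control.

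**Figure D1:**
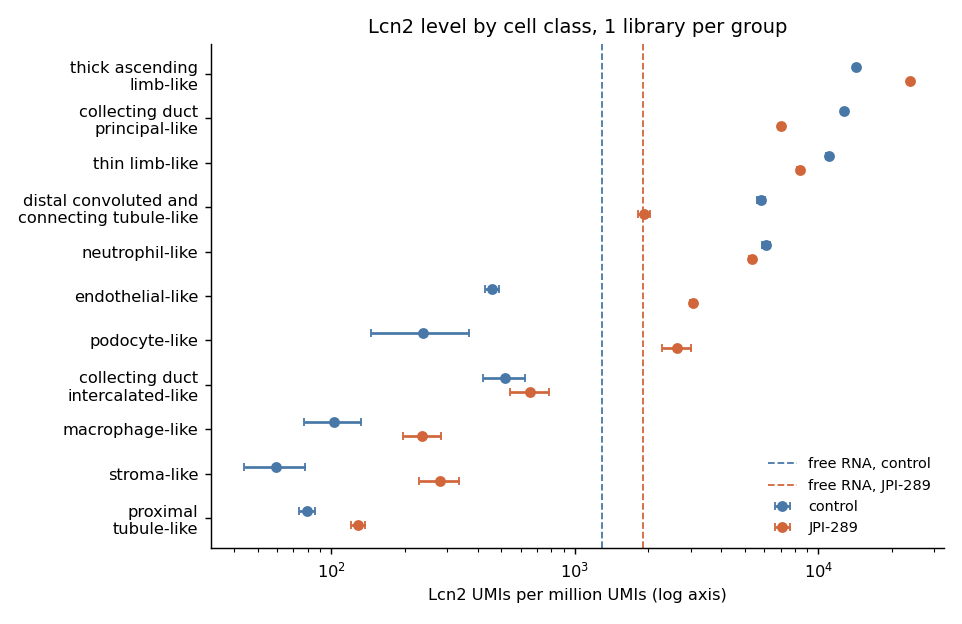
Lcn2 level in CPM (log axis) in 11 cell classes, summed over the cells of a class in the control (blue) and JPI-289 (orange) library, with exact Poisson 95% intervals. Dashed lines give the level in barcodes of 10 to 99 UMIs, 1294 and 1903 CPM. PT-like, stroma-like and macrophage-like cells lie far to the left of the lines, and TAL-like cells farthest to the right.

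A small part of the cells held most of the transcript. TAL-like cells had 5.22% of the UMIs of called control cells but 30.9% of their Lcn2 UMIs, and in the JPI-289 library 6.88% and 48.4%. PC-like cells held 31.0% of the control's Lcn2 and 15.7% of the JPI-289 library's. In the control, 3929 of their 12538 Lcn2 UMIs were in 1 cell. Thin limb-like cells, only 61 and 60 in number, held 17.1% and 6.60%. The share of neutrophil-like cells was 6.60% in the control, where they numbered 196, and 14.3% in the JPI-289 library, where they numbered 654, and that of EC-like cells was 2.22% and 8.67%. PT-like cells gave the most UMIs, 48.6% and 41.0%, but 1.60% and 1.57% of the Lcn2. Over all barcodes Lcn2 was higher in the JPI-289 library by 0.59 on the log2 scale (0.58 to 0.61), from 66539 and 92973 UMIs. Of these, 40389 and 60448 were in the called cells that were kept, to which the shares above refer.

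**Figure D2:**
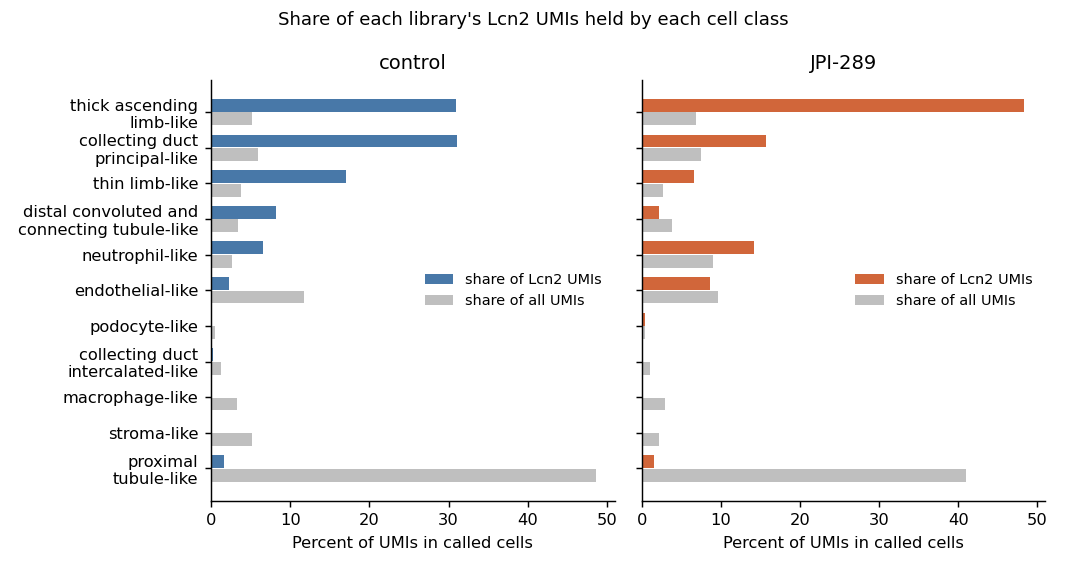
Share of the Lcn2 UMIs in called cells (coloured bars) and of all UMIs in called cells (grey bars) that each class held, in percent, for the control and the JPI-289 library. TAL-like and PC-like cells held like shares of Lcn2 in the control library (30.9% and 31.0%), and TAL-like cells held 48.4% in the JPI-289 library.

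RNA that floats free in the suspension is captured with every cell, and the low-UMI barcodes show how much Lcn2 it holds. Barcodes of 10 to 99 UMIs had 1294 CPM of Lcn2 (1061 to 1562) in the control against 1903 (1632 to 2207) in the JPI-289 library, and those of 100 to 300 UMIs, which are far more numerous, 1403 (1382 to 1423) and 1928 (1903 to 1953). TAL-like, PC-like, thin limb-like and neutrophil-like cells lay above this level in both libraries, from 2.80 to 12.5 times it with the first range of barcodes. DCT/CNT-like cells lay at 4.50 times it in the control and at 1.01 times in the JPI-289 library, and EC-like cells lay at 0.353 and 1.60 times. A cell holds free RNA only as a part of its UMIs, and this part was estimated from markers of other cell types. In TAL-like cells it came to 9.5% and 6.66% of the UMIs, which would bring 123 and 127 CPM of Lcn2, 0.858% and 0.533% of what was measured. In PT-like cells it came to 13.3% and 7.16%, which would bring 172 and 136 CPM, more than the 79.5 and 129 that were measured. By the marker lists that gave the lowest share, 79.1 and 49.3 CPM would be expected, and by those that gave the highest 466 and 487, so that expression in PT-like cells cannot be told apart from free RNA here. The measured level was also below that expected, at 0.641 to 0.881 times it, in stroma-like cells of both libraries, podocyte-like cells of the control and lymphocyte-like cells of the JPI-289 library. Macrophage-like cells were at 1.09 and 1.11 times the expected level. Red blood cell-like cells were at 1.04 and 2.07 times it, and in the JPI-289 library 55 of their 119 Lcn2 UMIs were in 1 cell. These estimates are rough, since single marker lists gave from 2.59% to 25.6% of free RNA in PT-like cells of the JPI-289 library, for example.

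The share of cells with Lcn2 did not follow the level in every class. At least 1 Lcn2 UMI was found in 86.0% (81.4 to 89.9) and 90.3% (87.0 to 93.0) of TAL-like cells of the control and JPI-289 libraries, in 72 of 80 and 363 of 382 PC-like cells and in 91.8% and 90.5% of neutrophil-like cells. To compare classes at 1 depth, each cell was thinned to 1000 UMIs, and cells with fewer were left out, from 9 to 514 per class and library in the 7 classes. The thinned shares were 86.3% and 91.0% in TAL-like, 76.1% and 87.6% in PC-like, 89.3% and 87.1% in neutrophil-like, 76.1% and 52.7% in DCT/CNT-like and 49.1% and 52.0% in thin limb-like cells. Thin limb-like cells thus had a lower share than neutrophil-like cells at a higher level. In red blood cell-like cells, which carry little RNA but that of the globins and should lack Lcn2, the thinned share was 16.1% (7.62 to 28.3) and 19.4% (11.9 to 28.9), at a median of 1519.5 and 1531 UMIs. Stroma-like cells had 9.09% (4.45 to 16.1) and 25.4% (15.5 to 37.5). PT-like cells, with 10.6% (8.97 to 12.3) and 12.1% (10.2 to 14.1) at a median of 2265.5 and 1835 UMIs, did not exceed the share in red blood cell-like cells. Macrophage-like cells had 12.6% and 19.7%. In EC-like cells the share was 22.2% (18 to 26.8) in the control against 55.6% (50.4 to 60.7). Without thinning, 25.7% and 31.1% of PT-like, 31.1% and 31.0% of macrophage-like, 44.1% and 65.2% of EC-like, 73.6% and 59.4% of DCT/CNT-like, 31.6% and 28.5% of red blood cell-like and 22.5% and 45.1% of stroma-like cells had a Lcn2 UMI.

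**Figure D3:**
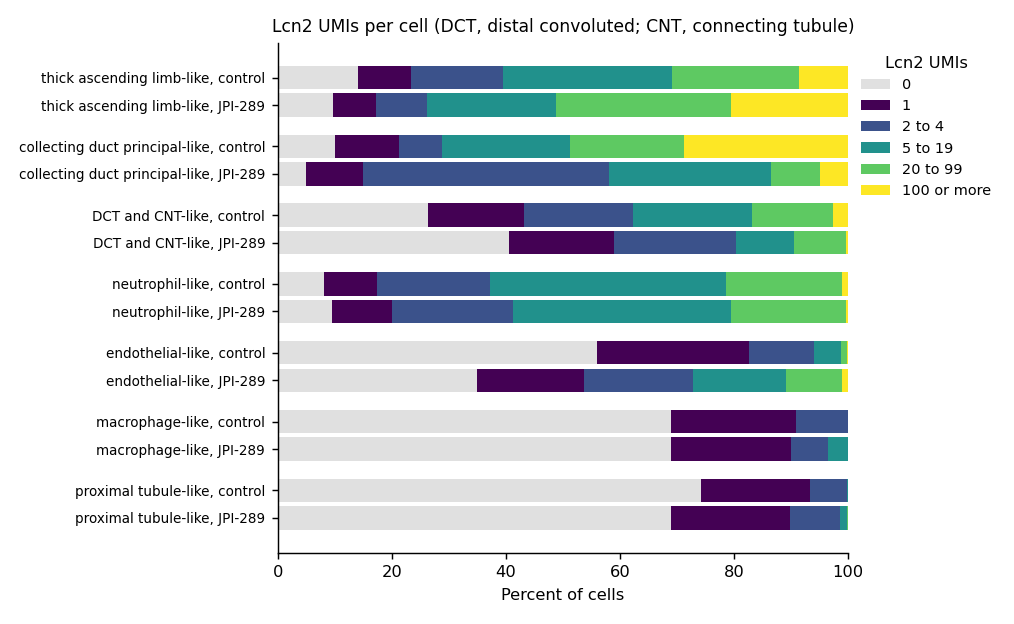
Percent of cells by their number of Lcn2 UMIs (0, 1, 2 to 4, 5 to 19, 20 to 99, 100 or more) in 7 classes of each library, before thinning. Among TAL-like cells 60.6% of control and 73.8% of JPI-289 cells had at least 5 Lcn2 UMIs, and among PT-like cells 0.280% and 1.46%.

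Cells of the thick ascending limb, which reabsorb salt and secrete uromodulin (Umod), had more Lcn2 in the JPI-289 library. The 279 control cells had 12484 Lcn2 UMIs and the 412 JPI-289 cells 29227. The level went from 14321 to 23775 CPM, a log2 ratio of 0.73 (0.70 to 0.76), or 1.66-fold. Of the 7791 genes measured in this class, 1188 had a higher ratio, and 8.45% of genes were at least 2-fold higher and 10.7% at least 2-fold lower. A typical cell differed more than the sum, with a median of 8 Lcn2 UMIs in the control against 21 in the JPI-289 library. In the control the 10% of cells with most Lcn2 held 71.6% of it, with up to 1479 UMIs in a cell, against 49.9% and up to 580 in the JPI-289 library. Without those cells the log2 ratio was 1.36, and with equal weight of each cell 1.05. The level was higher in the JPI-289 library at each depth, with 8688 and 16111 CPM in cells of 500 to 1000 UMIs, 9332 and 19644 in those of 1000 to 3000 and 16368 and 26013 in deeper ones. Umod itself was at 5632 and 8514 CPM, and the number of Lcn2 UMIs per Umod UMI was 2.54 and 2.79. The 7 other markers of this limb were at 1203 and 471 CPM summed.

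Principal cells, which reabsorb water through aquaporin 2 (Aqp2), had less Lcn2 in the JPI-289 library, but the cells captured differed in depth. The 80 control cells had 12538 Lcn2 UMIs and a median depth of 9235.5 UMIs, and the 382 JPI-289 cells had 9466 and a median depth of 1538.5. The level was 12761 and 7028 CPM, a log2 ratio of -0.86 (-0.90 to -0.82). The 10% of cells with most Lcn2 held 66.9% and 81.8% of it, with up to 3929 and 1211 UMIs in a cell. Without those cells the log2 ratio was -1.35. In this class 8.75% of the 8373 genes were at least 2-fold higher and 13.9% at least 2-fold lower, and 1434 had a lower ratio than Lcn2. Among cells of at least 3000 UMIs the levels were nearer, at 13017 (12789 to 13248) and 9152 (8957 to 9351) CPM, a log2 ratio of -0.51. The 280 JPI-289 cells of 1000 to 3000 UMIs had 2613 CPM (2461 to 2771), and the control had too few cells of that depth for a value. Lcn2 UMIs per Aqp2 UMI were 1.91 and 1.47. Markers of neutrophils went the other way and were higher in the JPI-289 library. In the control 2 of their 10 markers had a UMI in PC-like cells, in 1.25% of the cells and at 2.04 CPM summed, with Csf3r, Cxcr2 and Mmp9 among those at 0. In the JPI-289 library all 10 had UMIs, in 69.4% of the cells and at 570 CPM, and their part in the result was not tested. In cells with no UMI of S100a8, S100a9 or Umod, 73 in the control against 128 in the JPI-289 library, the log2 ratio was -0.68. The number of cells in this class depended on the processing. Where only cells of at least 1000 UMIs were clustered it was 92 in the control against 127 in the JPI-289 library. With each library clustered alone it was 159 and 135, and with each cell named by itself 59 and 119. With at most 20% mitochondrial UMIs it was 75 and 375, and at resolution 0.5 160 and 492. Sprr2f and Plet1, which are not principal cell markers, were among the leading genes of this cluster.

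In cells of the distal convoluted and connecting tubule, which carry the thiazide-sensitive transporter Slc12a3 and the calcium-binding protein Calb1, Lcn2 was lower in the JPI-289 library. The 220 control cells had 3302 Lcn2 UMIs and the 244 JPI-289 cells 1338, and the median depth was 1083 and 1263.5 UMIs, respectively. The levels of 5817 and 1928 CPM gave a log2 ratio of -1.59 (-1.69 to -1.50), a 3.02-fold lower level. Only 209 of the 6241 genes had a lower ratio, where 7.9% of genes were at least 2-fold higher and 9.42% at least 2-fold lower. The difference grew with depth. In cells of 500 to 1000 UMIs the levels were 3317 (2908 to 3768) and 2841 (2444 to 3284) CPM, whose intervals overlap, in cells of 1000 to 3000 UMIs 5749 and 2557, and in deeper cells 6293 and 1618. Cells with at least 5 Lcn2 UMIs were 37.7% of control and 19.7% of JPI-289 cells. Markers of the thick ascending limb were also lower, at 1060 CPM summed, with 7 of 8 markers present, in the control against 210, with 5 of 8 and Slc12a1 and Cldn16 at 0, in the JPI-289 library, and their part was not tested. Most of these UMIs were of Umod, 484 of 602 and 136 of 146. In cells with no UMI of Umod, S100a8, S100a9 or Aqp2 the log2 ratio was -1.11, and with equal weight of each cell -0.95. With coarser clustering TAL-like and DCT/CNT-like cells fell into 1 cluster, and the ratio of that joint class was 0.54.

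Thin limb-like cells of the inner medulla and intercalated-like cells of the collecting duct differed less. The 61 control and 60 JPI-289 thin limb-like cells had 6912 and 3991 Lcn2 UMIs, 11029 and 8412 CPM, a log2 ratio of -0.39 (-0.45 to -0.33). This sum rested on few cells, since the 10% with most Lcn2 held 80.6% and 77.4% of it, the median cell had 2 and 1 Lcn2 UMIs and the highest 2730 and 1017. There were 102 and 105 Lcn2 UMIs per Umod UMI in these cells, from 68 and 38 Umod UMIs. Intercalated-like cells, which secrete acid or base, had 106 UMIs in 47 cells and 120 in 62, 515 (422 to 623) and 654 (542 to 782) CPM, and the interval of their log2 ratio, 0.34, held 0 (-0.05 to 0.74).

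Neutrophils, which store lipocalin 2 in their secondary granules, had a summed level 1.15-fold lower in the JPI-289 library, where they were more numerous. The 196 control cells had 2664 Lcn2 UMIs and the 654 JPI-289 cells 8615, and the median depth was 1973 and 2035.5 UMIs, respectively. The levels were 6124 and 5328 CPM, a log2 ratio of -0.20 (-0.26 to -0.14), or 1.15-fold lower. This ratio lay within the bulk of the 6259 genes, of which 4088 were above and 2170 below it, while 11.6% were at least 2-fold higher and 10.3% at least 2-fold lower. The median cell had 8 and 7 Lcn2 UMIs. At like depth the levels lay farther apart in cells of 1000 to 3000 UMIs, at 5099 (4825 to 5384) and 3640 (3504 to 3779) CPM. In deeper cells they were 7988 (7563 to 8431) and 6990 (6810 to 7174). Lcn2 was spread more evenly than in the tubule, the 10% of cells with most holding 41.1% and 44.1%. A small cluster of 28 shallow neutrophil-like cells, found only in the JPI-289 library, had 7820 CPM (6774 to 8982). Cells that carried transcripts of other secondary granule proteins had more Lcn2. After thinning to 1000 UMIs, Camp, Ltf or Ngp was found in 22.0% of control and 44.8% of JPI-289 cells. In the control such cells had 9.00 Lcn2 UMIs on average (8.08 to 9.99), against 4.65 (4.30 to 5.03) in cells without them. In the JPI-289 library the values were 6.02 (5.72 to 6.32) and 3.17 (2.98 to 3.37), and the granule genes were chosen for this split with the data in view. The split does not mark the same cells in both libraries, since the granule genes themselves differed, Camp with 1 and 126 and Ltf with 3 and 90 UMIs.

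Endothelial cells gave the widest difference of the 7 classes. The 501 control cells had 898 Lcn2 UMIs and the 571 JPI-289 cells 5239, and the median depth was 2029 and 1994 UMIs, respectively. The level was 456 CPM (427 to 487) in the control against 3049 (2967 to 3133) in the JPI-289 library, so that the log2 ratio was 2.74 (2.64 to 2.84), or 6.68-fold. Of 9726 genes, 16 had a higher ratio, where 5.12% of genes were at least 2-fold higher and 18.6% at least 2-fold lower. The classes were made of different clusters. A cluster led by heat-shock genes (Hspa1b, Hspa1a) held 243 control and 289 JPI-289 cells, with 387 (327 to 455) and 3590 (3400 to 3787) CPM of Lcn2, a log2 ratio of 3.21. A cluster led by Igfbp3, Esm1 and Ctla2a held 75 and 280 cells, with 280 (243 to 322) and 2856 (2767 to 2949), a log2 ratio of 3.35. A cluster led by Fam167b, Plvap and Cd300lg held 183 control and 2 JPI-289 cells and was at 627 CPM (576 to 682) in the control. Lcn2 was spread over many cells, with at least 5 UMIs in 5.99% of control and 27.2% of JPI-289 cells, but the 10% with most Lcn2 held 77.1% and 73.6% of it. The level was higher at each depth, with 657 and 1660 CPM in cells of 500 to 1000 UMIs, 424 and 2437 in those of 1000 to 3000 and 450 and 3361 in deeper ones.

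In EC-like cells Umod was higher in the JPI-289 library, as Lcn2 was, while the other markers of the thick ascending limb and the summed markers of neutrophils and principal cells were lower. The summed level of the 8 thick ascending limb markers was 86.9 CPM, with 7 present, in the control against 219 CPM, with 5 present and Kcnj1, Cldn19 and Tmem207 at 0, in the JPI-289 library. Of these UMIs 97 of 171 and 358 of 377 were of Umod, and the 7 other markers had 74 and 19 UMIs. The markers were found in 18% of control and 10.5% of JPI-289 cells. Neutrophil markers were at 223 and 137 CPM, all 10 present in both, and were found in 9.38% and 19.1% of cells, and principal cell markers at 56.9 and 34.3, with Aqp4 and Avpr2 at 0 in both. Lcn2 UMIs per Umod UMI were 9.26 and 14.6 in EC-like cells, against 2.54 and 2.79 in TAL-like cells and 4.91 and 6.25 in barcodes of 10 to 99 UMIs. In EC-like cells with no UMI of Umod, S100a8, S100a9 or Aqp2, 394 in the control against 434 in the JPI-289 library, the levels were 373 and 2357 CPM, a log2 ratio of 2.66 (2.53 to 2.79). The free RNA estimated in these cells, 12.8% and 15.1% of their UMIs, would bring 166 and 287 CPM of Lcn2, and with it subtracted the log2 ratio was 3.25. This estimate is rough. By the lists that gave the lowest share, 79.2 and 182 CPM would be expected. The lists that gave the highest share brought 831 and 1359 CPM, the former above the 456 measured in the control. With barcodes of 100 to 300 UMIs the highest lists brought 2469 and 3046 CPM, the latter near the 3049 measured in the JPI-289 library. Without the cells of highest doublet scores the log2 ratio was 2.66. The caller that gave these scores did not work, so the part of doublets was not tested.

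**Figure D4:**
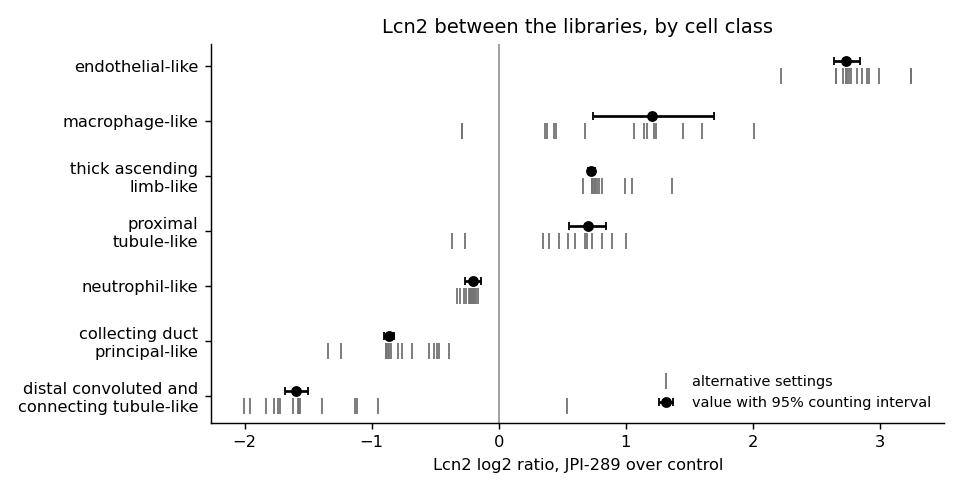
Lcn2 log2 ratio of JPI-289 over control in 7 cell classes (black points, with exact binomial 95% counting intervals) and under alternative processing (grey marks). EC-like cells lie at 2.74, with the lowest alternative at 2.23, and the marks of macrophage-like, PT-like and DCT/CNT-like cells lie on both sides of 0.

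Macrophages of the resident type, marked by C1qa, C1qb and C1qc, had little Lcn2. The 132 control cells had 56 Lcn2 UMIs and the 171 JPI-289 cells 123, 102 (77.2 to 133) and 237 (197 to 283) CPM. The log2 ratio was 1.21 (0.75 to 1.70), where 10.9% of the 6014 genes were at least 2-fold higher and 17.4% at least 2-fold lower, and 415 had a higher ratio. The free RNA estimated in these cells would bring 91.9% and 90.5% of these UMIs. Neutrophil markers moved with the ratio, at 980 CPM with 8 of 10 present in the control against 2481 with 9 of 10 present in the JPI-289 library. S100a9 and Hdc were at 0 in the control and Cxcr2 in the JPI-289 library. Of these UMIs 9 of 537 and 166 of 1288 were of S100a8 and S100a9, so most came from other members of the list. In cells with no UMI of Umod, S100a8, S100a9 or Aqp2 the levels were 102 and 138 CPM, and the interval of the log2 ratio of 0.44 held 0 (-0.15 to 1.03). A cluster led by Fn1, Lyz2 and Arg1, whose leading genes also held the platelet marker Pf4 and which stayed unnamed, had 896 (825 to 972) and 561 (511 to 613) CPM in 69 control and 131 JPI-289 cells. Counted with the macrophages, it turned the ratio to -0.285.

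In the proximal tubule, which reabsorbs most of the filtrate and is the main site of ischemic injury, the level of Lcn2 was low and could not be told apart from free RNA. The 1788 control cells had 645 Lcn2 UMIs and the 1649 JPI-289 cells 946, 79.5 (73.5 to 85.8) and 129 (121 to 138) CPM. The log2 ratio of 0.70 (0.56 to 0.85) compares levels below those expected from the estimated free RNA, so no difference in expression is read from it. In this class 9.14% of the 11307 genes were at least 2-fold higher and 23.6% at least 2-fold lower. The ratio turned to -0.37 where at most 20% mitochondrial UMIs were allowed and the class held 666 JPI-289 cells, and to -0.26 where each cell was named by itself. The level was lower in deeper cells of both libraries, from 475 and 931 CPM in cells of 500 to 1000 UMIs to 187 and 307 in those of 1000 to 3000 and to 43.8 and 55.8 in deeper ones. Nearly every PT-like cluster came from 1 library. Early segment clusters of the control, 746 cells, had 63.0 CPM (55.9 to 70.9). Late segment clusters had 43.9 (34.2 to 55.5) in 161 control cells and 66.1 (56.9 to 76.3) in 328 JPI-289 cells, and clusters that neither list marked had 142 and 168. A cluster led by Srxn1, Plin2 and Krt20, with 986 JPI-289 and 22 control cells, had 281 CPM (259 to 304) in the former, above the 136 CPM expected from free RNA for the whole class in that library and below the 487 CPM expected by the highest list.

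**Figure D5:**
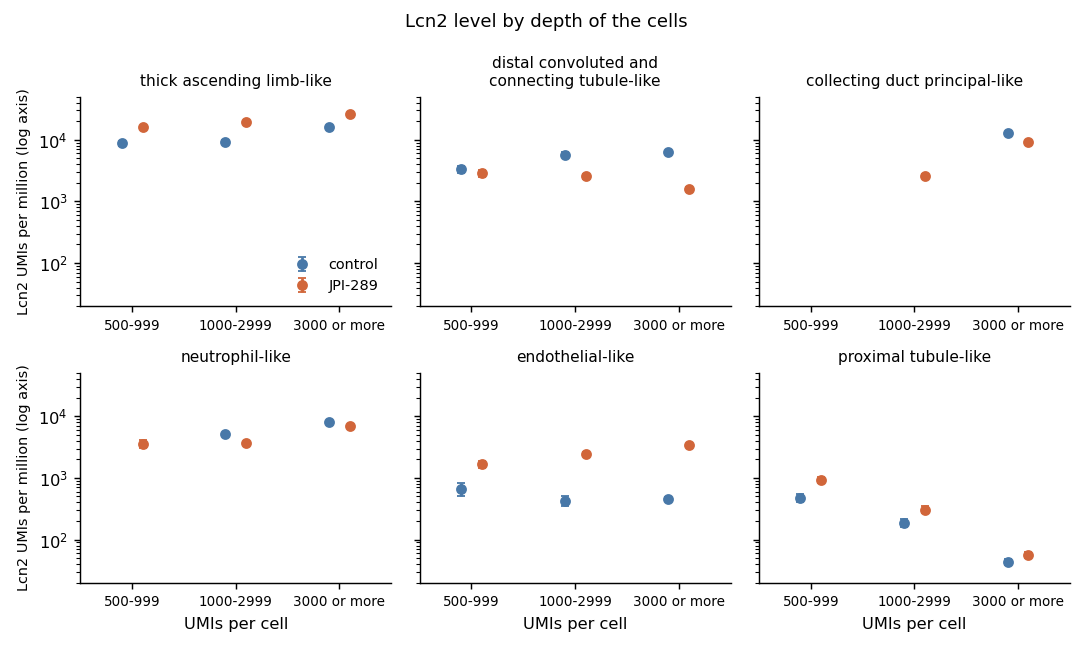
CPM of Lcn2 (log axis) in cells of 500 to 1000, 1000 to 3000 and 3000 or more UMIs, by class and library, with exact Poisson 95% intervals, for bands of at least 20 cells. In DCT/CNT-like cells the libraries part with depth, from 3317 and 2841 to 6293 and 1618 CPM, and in PT-like cells the level is lowest in the deepest cells of both.

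Among the smaller classes, podocyte-like cells, which form the filtration barrier, had 20 Lcn2 UMIs in 52 control cells and 216 in 58 JPI-289 cells, 238 (146 to 368) and 2628 (2289 to 3002) CPM. The log2 ratio of 3.43 (2.80 to 4.20) rested on few cells, as 173 of the 216 UMIs were in 1 cell, and in cells with no UMI of Umod, S100a8, S100a9 or Aqp2 it was 1.57 (0.59 to 2.75) from 11 and 32 UMIs. A Lcn2 UMI was found in 14 of 52 control and 24 of 58 JPI-289 cells, and after thinning in 0 of 25 (exact upper limit 13.7% at that depth) and 11 of 36. Stroma-like cells had 51 and 112 Lcn2 UMIs, 59.1 (44.0 to 77.7) and 279 (230 to 336) CPM, a log2 ratio of 2.23 (1.75 to 2.75). The free RNA estimated in stroma-like cells would bring 74.0 and 317 CPM, more than was measured. No difference in expression is therefore read from their ratio. Neutrophil markers went along with the ratios of podocyte-like and stroma-like cells. They were at 95.3 CPM with 3 of 10 present in control and 1472 with 9 of 10 present in JPI-289 podocyte-like cells, and at 11.6 with 5 of 10 present and 638 with 8 of 10 present in stroma-like cells. In stroma-like cells with no UMI of Umod, S100a8, S100a9 or Aqp2 the log2 ratio was 2.14 (1.55 to 2.75), from 40 and 62 Lcn2 UMIs. The part of neutrophil RNA in these results was not tested. Red blood cell-like cells had 219 and 525 CPM, and lymphocyte-like cells 218 in the JPI-289 library, where the control had 6 cells.

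Of the known partners of lipocalin 2, Lrp2 was highest in PT-like and Mmp9 in neutrophil-like cells, while Slc22a17 was too sparse to order the classes. Lrp2 and Mmp9 were among the markers used to name these classes, so where they were highest was largely set by the naming. Lrp2, which encodes the receptor megalin that takes up the filtered protein, was at 431 CPM (417 to 445) in control and 61.0 (55.5 to 66.9) in JPI-289 PT-like cells, a log2 ratio of -2.82 (-2.97 to -2.68). In TAL-like cells it was at 34.4 and 12.2. Slc22a17, a proposed cell-surface receptor of lipocalin 2, was sparse, with 37 and 32 UMIs in PT-like cells (4.56 and 4.37 CPM), 7 and 11 in TAL-like cells (8.03 and 8.95) and 15 and 9 in PC-like cells (15.3 and 6.68). It was at 15.1 CPM in control stroma-like cells, from 13 UMIs, and at 16.4 in JPI-289 intercalated-like cells, from 3. Mmp9, the gelatinase that binds lipocalin 2 in neutrophils, was at 1202 and 1535 CPM in neutrophil-like cells and at most 36.5 in every other class with at least 50 cells. Nfkbiz, the gene of IκBζ, was highest in neutrophil-like cells, at 954 and 882 CPM, and next highest in macrophage-like cells, at 602 and 520 CPM, where Lcn2 was low. It was at 71.1 and 83.8 in TAL-like, 89.6 and 66.8 in PC-like, 44.0 and 49.0 in DCT/CNT-like and 105 and 92.5 in EC-like cells.

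Related genes were compared by 4 lists, and members with at least 20 UMIs are called measured. The values named are log2 ratios of JPI-289 over control, for the members with most UMIs and those that differed most. Inducers, receptors and transcription factors had 24 members. In TAL-like cells 5 of 17 measured members were at least 2-fold higher and none lower (8.45% and 10.7% of all genes), with a median of 0.75 against -0.03 for all genes, and Cebpd (C/EBPδ) was at 2.37, Rela (an NF-κB subunit) at 1.38, Socs3 at 0.64, Cd14 at -0.71 and Tnfrsf1a at -0.75. In DCT/CNT-like cells, where Lcn2 was lower, 3 of 13 were higher and none lower (7.9% and 9.42%), with a median of 0.48 against -0.01, and Rela was at 1.72, Nfkbia at 1.40, Cebpd at 0.97, Stat3 at 0.84 and Tnfrsf1a at -0.72. In PC-like cells 1 of 17 was higher and 2 lower (8.75% and 13.9% of all genes, median -0.11 against -0.07), with Il17ra at 3.14, Rela at 0.97, Cebpd at 0.11, Hif1a at -0.14, Nfkbiz at -0.42 and Tnfrsf1a at -0.64. In EC-like cells 2 of 23 were higher and 1 lower (5.12% and 18.6% of all genes, median 0.27 against -0.18), with Il17ra, a receptor of interleukin 17, at 1.51, Cd14 at 1.02, Cebpb at 0.78, Nfkbia at 0.48 and Tlr4 at -0.76. In neutrophil-like cells 0 of 22 were past 2-fold (11.6% of all genes higher and 10.3% lower, median -0.01 against 0.11), with Myd88 at 0.83, Il17ra at 0.75, Cebpb at -0.02, Cd14 at -0.50 and Tlr4 at -0.93. In macrophage-like cells 3 of 22 were higher and 1 lower (10.9% and 17.4% of all genes, median 0.21 against -0.04), with Il6st at 1.55, Stat3 at 1.36, Cebpb at 0.36, Cd14 at 0.10, Nfkb1 at -0.27 and Tnfrsf1a at -0.49. In PT-like cells 4 of 19 were higher and 2 lower (9.14% and 23.6% of all genes, median 0.48 against -0.19), with Cd14 at 3.92, Cebpd at 2.33, Stat3 at 0.95, Cebpb at -0.05 and Nfkbiz at -1.38.

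Binding partners and genes of uptake and iron had 14 members, and their medians lay below that of all genes in 6 of the 7 classes. The shares of all genes past 2-fold are those just given for each class, and with few members measured a count of 1 to 3 is near them in several classes. In TAL-like cells 1 of 7 was higher and 3 lower (median -0.27), with the ferritin heavy chain Fth1 at 1.04, Hmox1 at 0.93, Ftl1 at 0.15, the iron exporter Slc40a1 at -1.84 and the transferrin receptor Tfrc at -2.51. In DCT/CNT-like cells 1 of 6 was higher and 3 lower (median -0.83), and in PC-like cells 0 of 7 and 2 (median -0.53). In these classes Tfrc was at -1.74 and -1.66, Hmox1 at 1.46 and 0.91, Fth1 at 0.34 and 0.61 and Ftl1 at 0.07 and 0.06. In EC-like cells 0 of 12 were higher and 3 lower (median -0.71), where 18.6% of all genes were lower, with Trf at 0.25, Fth1 at 0.22, Ftl1 at -0.14, Lrp2 at -1.67 and Cp at -2.02. In neutrophil-like cells 0 of 10 and 4 (median -0.66), with Mmp9 at 0.35, Fth1 at -0.05, Ftl1 at -0.08, Hmox1 at -1.42 and Lrp2 at -2.85. In macrophage-like cells 1 of 8 and 2 (median 0.12), with Fth1 at 0.70, Ftl1 at 0.14 and Hmox1 at -1.74. In PT-like cells 1 of 12 and 5 (median -0.48), with Hmox1 at 1.22, Ftl1 at 0.70, Fth1 at 0.48, Lrp2 at -2.82 and the megalin partner Cubn at -3.70. Lrp2 is a proximal tubule marker, at 431 and 61.0 CPM in PT-like cells. The part of free RNA in its ratios in EC-like and neutrophil-like cells was not tested.

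Acute phase and secretory leukocyte proteins had 16 members, of which few were measured outside neutrophils. Of all genes, 8.45% were at least 2-fold higher and 10.7% lower in TAL-like cells, and 7.9% and 9.42% in DCT/CNT-like cells. These shares were 8.75% and 13.9% in PC-like, 5.12% and 18.6% in EC-like and 11.6% and 10.3% in neutrophil-like cells. They were 10.9% and 17.4% in macrophage-like and 9.14% and 23.6% in PT-like cells. Medians of all genes are those given with the inducers. In neutrophil-like cells 4 of 14 were higher and 5 lower (median -0.08), with the granule proteins Camp at 4.50 and Ltf at 2.80, S100a8 at 0.17, S100a9 at 0.02, Saa3 at -1.64 and Chil3 at -2.01. In EC-like cells 0 of 5 were higher and 4 lower (median -1.38), with S100a8 at -1.29, S100a9 at -1.38, Chil3 at -3.26 and Ngp at -3.32, opposite to Lcn2 in the summed UMIs of the same cells. By share of cells, neutrophil markers were found in 9.38% of control and 19.1% of JPI-289 EC-like cells. In TAL-like cells 2 of 3 were higher, S100a8 and S100a9, and 1 lower (median 2.01), the last being Slpi, a protease inhibitor, with 152 and 1 UMIs. In DCT/CNT-like cells both measured members, S100a8 and S100a9, were higher (median 2.19), but neither had 50 UMIs. In PC-like cells 4 of 5 were higher and 1 lower, with S100a8 at 0 and 245 UMIs and S100a9 at 1 and 349, and the median was 3.13 where a member at 0 UMIs was set to 3 counts and 5.74 where it was not. In macrophage-like cells 3 of 5 were higher and 1 lower (median 3.23), with Saa3 at 3.33, Wfdc17 at 0.32, Il1rn at -1.29 and S100a9 at 0 and 82 UMIs. In PT-like cells 2 of 8 were higher and 2 lower (median 0.53), with S100a8 at 1.34, S100a9 at 0.99 and C3 at -1.65. The neutrophil markers S100a8 and S100a9 were also higher in the free RNA of the JPI-289 library. Summed, they were at 203.7 and 1001 CPM in the first range of low-UMI barcodes. Their sum was 13.77 and 63.45 CPM in TAL-like and 22.90 and 103.8 in DCT/CNT-like cells. It was 1.018 and 441.0 in PC-like and 22.91 and 50.09 in PT-like cells. How much free RNA or neutrophil RNA added to the ratios of the tubule classes was not tested.

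Tubule injury genes, with 14 members, had ratios on both sides of 0 in each class. The shares of all genes past 2-fold, and their medians, are those given above for each class. Markers of the proximal tubule were found in at least 97.6% of EC-like, neutrophil-like and macrophage-like cells of each library. Krt20 was at 39.8 and 731 CPM in PT-like cells. The part of free RNA in the ratios of tubule genes in EC-like, neutrophil-like and macrophage-like cells was not tested. In TAL-like cells 3 of 12 were higher and 3 lower (median -0.19), with Krt20 at 3.07, Cdkn1a at 2.17, Spp1 at -0.24, Gdf15 at -2.16 and Clu at -2.18. In DCT/CNT-like cells 4 of 12 and 3 (median 0.08), with Cdkn1a at 1.57, Cryab at 0.14, Spp1 at 0.11, Clu at -0.21, Tmsb10 at -1.46 and Gdf15 at -1.88. In PC-like cells 3 of 12 and 2 (median -0.31), with Cdkn1a at 1.48, Spp1 at 0.86, Clu at -0.31, Tmsb10 at -1.39 and Timp1 at -3.44. In EC-like cells 6 of 13 and 0 (median 0.57), with Krt20 at 3.83, Cdkn1a at 1.74, Spp1 at 0.57, Clu at -0.72 and Tmsb10 at -0.79. In PT-like cells 6 of 13 and 1 (median 0.88), with Krt20 at 4.20, Cdkn1a at 2.44, Cryab at 0.88, Spp1 at 0.46, Clu at -0.62 and Gdf15 at -2.48. In neutrophil-like cells 1 of 11 and 2 (median 0.11), with Krt20 at 2.59, Krt8 at 0.89, Spp1 at 0.19, Cd44 at 0.11, Cdkn1a at -0.60 and Cryab at -1.30, and in macrophage-like cells 2 of 11 and 2 (median 0.30), with Cdkn1a at 0.99, Spp1 at 0.71, Tmsb10 at -0.68 and Cd44 at -1.17.

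Among the genes most like Lcn2 over the 24 class-by-library levels, out of 7003 genes, were Cd24a (Pearson r 0.843 of log2 levels), Mapk13 (0.829), Tmc4 (0.778), Wfdc2 (0.760), Muc1 (0.752), Cdo1 (0.736), Epcam (0.733), Rab25 (0.732) and Slco4a1 (0.728). The points share libraries and free RNA, and genes are not independent. Of those named, 6 were at their highest in control PC-like cells. Mapk13 was highest in JPI-289 neutrophil-like cells, at 136 CPM, and Cd24a had 747 and 1005 CPM there. None of those named had as large a ratio as Lcn2 in EC-like cells, where Cd24a was at 188 and 179 CPM and Epcam at 11.7 and 21.5.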

How the data were processed

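Kidney cells of 1 control and 1 JPI-289 mouse were captured in droplets with a 5′ kit and sequenced. The deposited files hold raw counts, whole UMIs per gene and barcode over all barcodes, which the authors made with Cell Ranger 5.0.1 on mm10 according to the submitters' processing notes (the file headers name Cell Ranger 4). The study's integration with public normal kidneys was not used here.

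Cells were called in 2 steps, by a UMI threshold and then, among barcodes of at least 500 UMIs, by a difference from the profile of empty droplets (adjusted p of at most 0.01). Cells with over 50% mitochondrial UMIs were left out. Counts per 10000 were log-transformed, and 2000 variable genes without Lcn2, 30 components and 20 neighbours gave Leiden clusters at resolution 1.0 (scanpy 1.11.5, leidenalg 0.10.2, numpy 2.4.6, scipy 1.17.1, pandas 2.3.3, matplotlib 3.10.9, Python 3.11.15). Clusters were named from marker lists. The members, lists and markers were chosen with earlier results of these data known, and the scoring rule for names was set after clusters were seen. Scrublet marked 3 of 8795 cells and was not used to remove cells.

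UMIs were summed per class and library, and levels are CPM, the UMIs of a gene for each 1000000 UMIs of the class. Genes with at least 20 UMIs in a class were measured. For ratios of summed UMIs, that of Lcn2 included, 0.5 UMIs were added to each sum, and past 2-fold is a description, not a test. Named from each list and class were the 2 members with most UMIs and, among those with at least 50 UMIs, the 2 with the largest ratio in each direction. Likeness to Lcn2 is Pearson's r of log2(CPM + 10) over named classes of at least 50 cells, among genes with at least 500 UMIs. Intervals are exact and cover counting error only, since droplets of 1 mouse are not replicates. On simulated data the interval held the true ratio for 95% of 200 changed genes, of 5030 in all, for TAL-like cells and for 97.5% of 200, of 8627, for EC-like cells. These counts were drawn as Poisson counts from summed profiles. The check therefore covers the computation only and cannot show that the intervals hold the spread between cells or mice. Calling kept 97.5% of 200 simulated cells of low depth and 0% of 300 empty droplets of the same depth. Alternatives changed calling, filters, clustering, naming, weights, free RNA and doublets. Some genes that these rules name are not reported here.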

Additional observations from a re-analysis of the deposited data

Results flagged for a closer look

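The Lcn2 ratio of JPI-289 over control went in opposite directions in different cell classes. The log2 ratio was 0.70 in PT-like, 0.73 in TAL-like, 2.74 in EC-like and 1.21 in macrophage-like cells, and -1.59 in DCT/CNT-like, -0.86 in PC-like and -0.20 in neutrophil-like cells. With 1 library per group the difference between classes was not tested against the spread between mice. Signs in PT-like, DCT/CNT-like and macrophage-like cells turned under some alternatives. Levels in PT-like cells lay below those expected from the estimated free RNA, so no difference in expression is read from their ratio. In macrophage-like cells this free RNA would bring 91.9% and 90.5% of the Lcn2 UMIs.

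Barcodes that entered no comparison also held Lcn2. Those with at least 500 UMIs that were not called as cells had a Lcn2 level of 1753 CPM (UMIs for each 1000000) (1688 to 1820) in the JPI-289 library and 792.0 (758.3 to 826.8) in the control. Cells left out for over 50% mitochondrial UMIs had 379.5 CPM (343.1 to 418.6) in the JPI-289 library and 193.6 (172.2 to 217.0) in the control.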

How the results depend on the processing

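Of the levels of the 7 classes in each library, 9 lay above that of free RNA, and 8 or 9 did under the 5 alternatives for which this was computed. The order of the levels changed in some. With each cell named by itself, control PC-like cells (16327 CPM) lay above TAL-like cells (13856) and control PT-like cells (696.6) above EC-like cells (400.5), and with at most 20% mitochondrial UMIs control DCT/CNT-like cells (6840) lay above neutrophil-like cells (6291). Among 70 alternative levels, 25 lay within the counting interval and 45 outside it. The direction held under every alternative run in TAL-like (14), PC-like (15), EC-like (15) and neutrophil-like cells (15), with ranges of the log2 ratio from 0.67 to 1.36, from -1.35 to -0.39, from 2.23 to 3.25 and from -0.33 to -0.16. It was kept in 11 of 13 alternatives in PT-like, 14 of 15 in DCT/CNT-like and 13 of 15 in macrophage-like cells, and the cause was not tested except as given. The log2 ratios outside the counting interval follow. With cells of at least 1000 UMIs they were 0.55 in PT-like, -1.83 in DCT/CNT-like and -0.48 in PC-like cells. With at most 20% mitochondrial UMIs they were -0.37 in PT-like and 0.81 in TAL-like cells, and 666 JPI-289 PT-like cells were left. With the median of all genes set to 0 they were 0.89 in PT-like, 0.76 in TAL-like, -0.79 in PC-like, 2.92 in EC-like and -0.31 in neutrophil-like cells. With each cell named by itself they were -0.26 in PT-like, 0.99 in TAL-like, -1.13 in DCT/CNT-like, -0.55 in PC-like, -0.33 in neutrophil-like and 0.68 in macrophage-like cells. With each library clustered alone they were -1.39 in DCT/CNT-like, -0.39 in PC-like and 2.01 in macrophage-like cells. With equal weight of each cell they were 1.00 in PT-like, 1.05 in TAL-like, -0.95 in DCT/CNT-like, -1.24 in PC-like, 2.23 in EC-like, -0.27 in neutrophil-like and 0.36 in macrophage-like cells. With the first calling step alone they were -1.76 in DCT/CNT-like, -0.47 in PC-like and 2.86 in EC-like cells. With free RNA subtracted they were -1.72 and -1.74 in DCT/CNT-like and 3.25 and 3.25 in EC-like cells, by barcodes of 10 to 99 and of 100 to 300 UMIs. With mitochondrial UMIs left out of the totals the value was 0.79 in TAL-like cells. At a clustering resolution of 0.5 it was 0.54 in DCT/CNT-like cells, where the cluster also held the TAL-like cells, -0.76 in PC-like and -0.29 in macrophage-like cells. Without the highest 5% of doublet scores, from the caller that did not work, it was 0.77 in TAL-like and 0.38 in macrophage-like cells. A further 4 alternatives were chosen after seeing the data. With cells of at least 3000 UMIs the values were 0.35 in PT-like, 0.67 in TAL-like, -1.96 in DCT/CNT-like, -0.51 in PC-like and 2.90 in EC-like cells. With cells free of UMIs of other types' genes they were 0.48 in PT-like, -1.11 in DCT/CNT-like, -0.68 in PC-like and 0.44 in macrophage-like cells. Without the 10% of cells with most Lcn2 they were 0.39 in PT-like, 1.36 in TAL-like, -2.0 in DCT/CNT-like, -1.35 in PC-like, 2.99 in EC-like and 0.45 in macrophage-like cells. With the cluster led by Fn1 and Arg1 counted as macrophages it was -0.285. Subtraction left no UMIs in PT-like cells, nor in JPI-289 macrophage-like cells by barcodes of 100 to 300 UMIs, and no TAL-like cluster was formed at resolution 0.5, so these gave no value. Of 28 alternative shares of genes past 2-fold, 20 were within 1.5 times the reported share. No paired analysis was possible because each group has 1 library, and for the same reason no replicate could be left out. The depth limits the classes with few Lcn2 UMIs most, such as macrophage-like cells with 56 and 123.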
